A study of Mus musculus with 8 samples.

Results

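The genes described here are the aryl hydrocarbon receptor (AHR) and the genes around it: the receptor Ahr, its partner Arnt, its repressor Ahrr, the induced enzymes Cyp1a1, Cyp1b1, Aldh3a1 and Tiparp, and Ido1, Tdo2 and Kynu of tryptophan breakdown. They were taken by symbol from a table of 27179 genes, in which all 10 had a row. The set was chosen by the rise of Aldh3a1, which was among the largest in the table, so the values of Aldh3a1 are given as a description and without a test. The other 9 genes were listed for what they do, with results of the same comparison already known, and their p-values are not independent support for the set.

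RNA was sequenced from 8 subcutaneous tumors of the C26 mouse colon carcinoma grown in adult male CD2F1 mice, 4 from each of a pair of cell lines. cxC26 is a C26 line that causes cachexia. The control line, cxC26 scr, carried CRISPR/Cas9 with a scrambled guide RNA, and cxC26 IL6KOs1 is a subclone in which interleukin-6 (IL-6) was knocked out. No drug was given to either group, and tumors were taken from mice that had become cachectic, defined as a body weight loss of more than 15%. The knockout is 1 subclone, so loss of IL-6 and other differences of that clone cannot be told apart. In the study's experiments on cachexia in CD2F1 mice the knockout cells were injected in larger number and their tumors reached the end point later, and neither value is given for the sequenced tumors, so tumor age cannot be told apart from the knockout either. A tumor holds cancer cells and host cells, and fewer cells of a type and less RNA per cell cannot be told apart in such bulk samples. The labels do not say whether each tumor came from its own mouse, and p-values measure the spread between these samples. Total reads assigned to genes ran from 14158989 to 17048062 per tumor. Il6 itself had 326 to 438 reads per control tumor and 56 to 86 per knockout tumor.

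AHR is a transcription factor that waits in the cytoplasm, bound to HSP90 and co-chaperones, until a ligand binds it. Ligands include dioxins, polycyclic hydrocarbons, bilirubin and kynurenine, the product that IDO1 or TDO2 starts to make from tryptophan. The bound receptor enters the nucleus, pairs with ARNT and binds a short DNA element, and the genes it turns on include detoxifying enzymes and its own repressors AHRR and TIPARP. ALDH3A1, an aldehyde dehydrogenase of cornea and stomach, is scarce in normal liver and induced there by dioxin.

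The core letters of the AHR-ARNT element, GCGTG, were looked for in the RefSeq promoters of the set (GRCm38.p6, from 250 bases before to 50 bases after the start) to show which genes carry them close to the start. That reference held a promoter for 6 of the 10 genes (Ahrr, Arnt, Cyp1a1, Cyp1b1, Tiparp and Tdo2). Aldh3a1, Ahr, Ido1 and Kynu had no entry in it and were not searched. Each of the 6 held the core on either strand, and so did 32.4% of all 32851 promoters in that reference and, counted by gene, 35.15% of 27025 genes. The longer form TNGCGTG, which contains the core, was found on either strand in Ahrr alone of the 6 and in 5.07% of all promoters. The core with 10 bases on each side is shown in the direction of the gene, with the core in capitals, and CACGC is the core on the other strand.
Ahrr, chr13:74292424-74292448, 107 bases before the start: ttgaaagggcGCGTGgcaggcaggg
Ahrr, chr13:74292399-74292423, 82 bases before the start: acaaggatgtGCGTGcgccctctgc
Ahrr, chr13:74292344-74292368, 27 bases before the start, within the longer form: ggggcggctcGCGTGctggggtggg
Arnt, chr3:95434351-95434375, 29 bases before the start: atagtttgggGCGTGtcttctgccc
Cyp1a1, chr9:57697549-57697573, 54 bases before the start: agataaggagGCGTGgccaacagac
Cyp1b1, chr17:79715123-79715147, 76 bases before the start: tcccgcccctCACGCcccaccccct
Tiparp, chr3:65528267-65528291, 170 bases before the start: ccgtccggagCACGCgcacgggagg
Tdo2, chr3:81975908-81975932, 194 bases before the start: gagggtttggCACGCcctgctagca
Ahrr was the gene of the 6 with more than 1 core, and Arnt, whose level hardly moved in these tumors, held it as well. A match of these letters is a description of the sequence and does not mark a bound site. The same core is part of hypoxia response elements, which ARNT binds together with HIF1A.

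Levels are given as log2 CPM, the log2 of library-scaled read counts (CPM) as the study normalized them, and differences as log2 fold changes of cxC26 IL6KOs1 minus cxC26 scr. A gene was tested when it reached 1 CPM, a log2 CPM of 0, in at least 4 of the 8 tumors. That filter kept 13262 genes and 5 of the set (Aldh3a1, Ahr, Arnt, Cyp1b1 and Tiparp), of which Aldh3a1 was at 1 CPM in 7 tumors and the others in all 8. In limma with Benjamini-Hochberg adjustment, 39.8% of the tested genes passed an adjusted p of 0.05, 19.1% higher and 20.7% lower in cxC26 IL6KOs1, so a call is common in this comparison. Of the 4 tested genes other than Aldh3a1, Cyp1b1 and Tiparp were called, both higher, and Ahr and Arnt were not. The median log2 fold change was 0.29 over these 4 genes and -0.0029 over all tested genes. Besides Aldh3a1, for which this was chosen, 4 of the other 9 genes (Tiparp, Cyp1b1, Ahrr and Ido1) had every knockout tumor above every control tumor, and none had every knockout tumor below. Such a separation upward was seen in 17.8% of the tested genes and in 9.95% of all genes in the table, 6610 of which had no read in any tumor. Ahrr and Ido1 were under the filter.

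**Figure D1:**
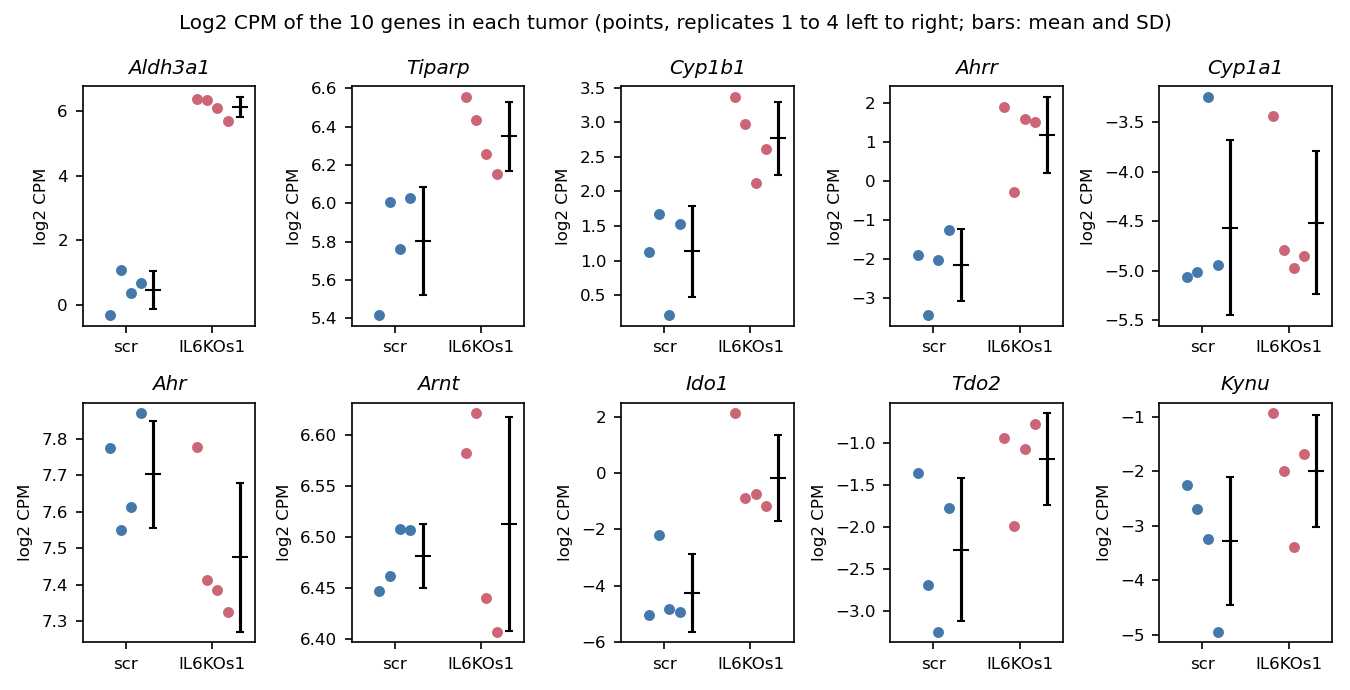
Log2 CPM (vertical axis, a separate scale for each gene) of the 10 genes in the 4 cxC26 scr and 4 cxC26 IL6KOs1 tumors, 1 point per tumor with the group mean and SD beside it. The groups stand apart for Aldh3a1, Tiparp, Cyp1b1, Ahrr and Ido1 and overlap for Cyp1a1, Ahr, Arnt, Tdo2 and Kynu.

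The receptor itself was abundant in both groups and did not rise. Ahr (chr12:35497979-35534989, minus strand) had log2 CPM values of 7.77, 7.55, 7.61 and 7.87 in the cxC26 scr tumors and 7.78, 7.41, 7.39 and 7.33 in the cxC26 IL6KOs1 tumors. Knockout tumor 1 lay among the controls and the other 3 lay below all of them. The log2 fold change was -0.23 (SE 0.112, 95% interval -0.47 to 0.018), with an adjusted p of 0.129 in limma. Knockout tumor 1 decides this call: without it the log2 fold change was -0.33 and the adjusted p 0.0203.

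Arnt, the partner that AHR shares with the hypoxia factors, had nearly the same level in all tumors (chr3:95434367-95497240, plus strand). Its log2 CPM was 6.45, 6.46, 6.51 and 6.51 in cxC26 scr and 6.58, 6.62, 6.44 and 6.41 in cxC26 IL6KOs1, and the groups overlapped. The log2 fold change was 0.032 (SE 0.078, 95% interval -0.14 to 0.20, adjusted p = 0.772), so a difference of more than about 0.20 in either direction lies outside the interval.

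Ahrr, which competes with AHR for ARNT and is itself an AHR target, was scarce in both groups and higher in the knockout tumors (chr13:74211118-74292331, minus strand). The cxC26 scr tumors held 4, 1, 3 and 6 reads and the cxC26 IL6KOs1 tumors 60, 11, 47 and 41, so that the lowest knockout tumor, number 2, stood above the highest control. Ahrr reached 1 CPM in 3 tumors, all of them knockout, and was therefore not among the 13262 tested genes. In the limma fit of all 27179 genes without a filter, in which 16.2% of genes were called in either direction, its log2 fold change was 3.33 (SE 0.666, 95% interval 1.82 to 4.84, adjusted p = 0.00958). The 2-sided exact permutation test over the 8 tumors gave p = 0.0286, the smallest it can give with 4 against 4. Summed over the tumors and scaled to library size, the ratio was 11.8 (14 reads against 159, 95% exact interval 6.81 to 22.0, which covers counting error only).

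Among the induced genes, Aldh3a1 went from near the limit of the filter in the control tumors to a high level in every knockout tumor. Aldh3a1 (chr11:61208510-61218418, plus strand) oxidizes medium-chain and aromatic aldehydes to acids with NADP. Control tumors 1 to 4 held 13, 34, 18 and 24 of its reads, and knockout tumors 1 to 4 held 1337, 1124, 1076 and 750. In log2 CPM these were -0.31, 1.09, 0.38 and 0.67 against 6.36, 6.34, 6.09 and 5.70. All 4 knockout tumors were close together and far above all 4 controls. The group means were 0.46 ± 0.59 and 6.12 ± 0.31 (SD, n = 4 each), a log2 fold change of 5.66 or 50.7-fold, which ranked 6 among the 13262 tested genes. On the log2(CPM + 1) scale, which shrinks low values, the difference was 4.89.

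Cyp1b1, a cytochrome P450 that oxidizes polycyclic hydrocarbons and estradiol, rose in the knockout tumors (chr17:79706940-79715061, minus strand). Its log2 CPM was 1.13, 1.67, 0.21 and 1.53 in cxC26 scr and 3.37, 2.97, 2.12 and 2.61 in cxC26 IL6KOs1, with no overlap. The means of 1.14 ± 0.66 and 2.77 ± 0.53 (SD, n = 4 each) differed by 1.63 (SE 0.344, 95% interval 0.88 to 2.38, adjusted p = 0.00319), or 3.10-fold.

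Tiparp, the mono-ADP-ribosyltransferase that AHR induces and that in turn represses AHR, rose by less (chr3:65528447-65555518, plus strand). The cxC26 scr tumors had log2 CPM values of 5.42, 6.01, 5.76 and 6.03 and the cxC26 IL6KOs1 tumors 6.55, 6.44, 6.26 and 6.15. The lowest knockout tumor, number 4, was just above the highest control. The log2 fold change was 0.55 (SE 0.139, 95% interval 0.24 to 0.85, adjusted p = 0.00908), or 1.46-fold. Tiparp overlaps the gene 4931440P22Rik, and the strand setting of the read counting is not given in the sources used here, so reads of the overlap may belong to either.

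Cyp1a1, the P450 that AHR ligands induce most strongly in many tissues, was all but undetected. Reads numbered 0, 0, 1 and 0 in control tumors 1 to 4, and 1, 0, 0 and 0 in knockout tumors 1 to 4. Both groups lie under the floor of 3 reads, so no fold change is given. Cyp1a2, its neighbour and fellow target, had no read in any of the 8 tumors. Cyp1b1, Ahrr and Aldh3a1 were thus higher in tumors in which Cyp1a1 was not detectable at this depth.

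Of the 3 genes of the set that make or use kynurenine, none reached the filter. Ido1, the tryptophan dioxygenase induced by interferon gamma (chr8:24584133-24596952, minus strand), had 0, 3, 0 and 0 reads in cxC26 scr and 70, 7, 9 and 6 in cxC26 IL6KOs1. The groups did not overlap, but most of the Ido1 reads came from knockout tumor 1. Without a filter, limma gave a log2 fold change of 4.10 (SE 0.94, 95% interval 1.96 to 6.23, adjusted p = 0.0179), and the exact permutation p was 0.0286. The ratio of the scaled sums was 31.8, with a 95% counting interval of 10.5 to 157. Without knockout tumor 1 the ratio was 10.4 (22 reads against 3, interval 3.12 to 54.2), and the log2 fold change was 3.34 with an adjusted p of 0.0220. The call was lost without control tumor 3 (3.91, adjusted p = 0.0586) or without control tumor 4 (3.87, adjusted p = 0.0526). Ido1 overlaps the gene Gm51565.

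Tdo2 and Kynu, the other dioxygenase and the kynureninase, were near the floor in both groups. Tdo2 (chr3:81958412-81975728, minus strand) had 6, 2, 1 and 4 reads in cxC26 scr and 8, 3, 7 and 8 in cxC26 IL6KOs1. The groups overlapped, and without a filter the log2 fold change was 1.08 (95% interval -0.28 to 2.44, adjusted p = 0.309, exact permutation p = 0.0857). Kynu (chr2:43555258-43683048, plus strand) had 3, 2, 1 and 0 reads against 8, 3, 1 and 4, with a log2 fold change of 1.28 (95% interval -0.40 to 2.97, adjusted p = 0.333, exact permutation p = 0.171). At this depth neither difference could be told from 0. Counted over the 9 genes other than Aldh3a1, 4 were called in the fit without a filter, and all 4 were higher: Cyp1b1, Tiparp, Ahrr and Ido1. That fit called 16.2% of all 27179 genes in either direction, with 2112 genes higher. The 27179 genes include the 6610 with no read in any tumor, which lowers that share.

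To compare the genes with each other, each level was divided by the length of the gene's exons and is given as log2 CPM per kb. In the cxC26 scr tumors Ahr was highest at 5.08 (range of 4 tumors 4.93 to 5.25). Tiparp at 3.68 and Arnt at 3.48 followed and overlapped each other. Aldh3a1 at -0.50 and Cyp1b1 at -1.41 came next and also overlapped, and the remaining 5 lay between -4.23 for Tdo2 and -6.05 for Cyp1a1. In the cxC26 IL6KOs1 tumors Aldh3a1 stood at 5.17 (4.74 to 5.41) beside Ahr at 4.85 (4.70 to 5.15), and these neighbours overlapped. Tiparp at 4.23 lay above Arnt at 3.51 in every tumor, Cyp1b1 followed at 0.22, and Ido1 and Ahrr were at -1.03 and -2.06. Per length, the message of Aldh3a1, chosen for its rise, was thus as abundant as that of the receptor in the knockout tumors. In the controls the Aldh3a1 message lay more than 4 log2 units below. The other induced enzymes, Tiparp, Cyp1b1 and Cyp1a1, lay below Ahr in both groups.

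**Figure D2:**
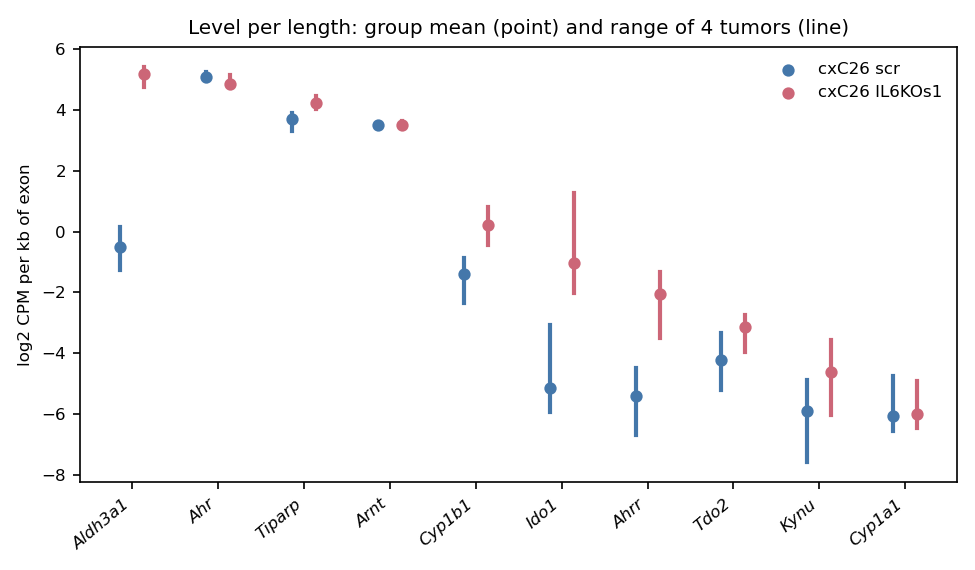
Log2 CPM per kb of exon (vertical axis) for the 10 genes, with the group mean as a point and the range of the 4 tumors as a line. Aldh3a1 moves from -0.50 to 5.17 while Ahr stays near 5, and the means of Tdo2, Kynu and Cyp1a1 lie under -3 in both groups.

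The genes whose centred values were nearest to those of Aldh3a1 over the 8 tumors had group differences of similar size. By the root mean square difference in log2 CPM, the nearest of 13261 genes were Cd8a (0.645), Atp6v0d2 (0.658), Mmp9 (0.674), Tmem184a (0.704) and Nkg7 (0.780). Cd8a marks cytotoxic T cells and Nkg7 cytotoxic lymphocytes, Atp6v0d2 encodes a proton pump subunit of osteoclasts and macrophages, and Mmp9 encodes a gelatinase. Their log2 fold changes lay between 4.85 and 5.27, so the likeness is mostly the size of the difference between the groups, for which Aldh3a1 was chosen. Cd8a and Nkg7 passed the filter through the knockout tumors alone and had to be higher there to be compared. The control means of Atp6v0d2 and Tmem184a, -0.753 and -1.83 log2 CPM, were also under the level of the filter. Within 250 kb of Aldh3a1 the tested genes were Kcnj12, Usp22 and Aldh3a2. Aldh3a2, the adjacent family member that oxidizes fatty aldehydes, differed by 0.27 (SE 0.094, adjusted p = 0.0371), a call lost without control tumor 2, 3 or 4 or knockout tumor 2, 3 or 4 (0.22 to 0.30, adjusted p 0.0558 to 0.102). Kcnj12, a potassium channel gene, rose by 1.74 (adjusted p = 0.00615) and Usp22, a deubiquitinase, fell by 0.32 (adjusted p = 0.0277), and all 3 overlapped between the groups. The call of Usp22 was lost without control tumor 2, 3 or 4 or knockout tumor 1, 3 or 4 (adjusted p 0.0502 to 0.0811).

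Some of the other genes known as AHR targets were called higher. Of 12 listed, 9 were tested, 3 were called higher, none lower and 6 were not called, with a median log2 fold change of 0.24, where 39.8% of all tested genes were called in either direction and 19.1% higher. Nqo1, the quinone reductase that AHR and NRF2 both induce, rose by 2.16 (adjusted p = 0.000575) from a log2 CPM of 0.38 to 2.54. Cyp2s1, an AHR-responsive P450 of epithelia, rose by 1.65 (adjusted p = 0.00104), but it passed the filter through the knockout tumors alone and had to be higher there to be tested. Selenbp1, a selenium-binding protein, rose by 1.16 (adjusted p = 0.0141). Nfe2l2, which encodes NRF2, had a log2 fold change of -0.093 (adjusted p = 0.353). Slc7a5, which carries tryptophan and kynurenine into cells, had 0.64 (adjusted p = 0.0635), and was called without control tumor 1 (0.94, adjusted p = 0.00127) or knockout tumor 1 (0.72, adjusted p = 0.0481). Ugt1a6a, a glucuronosyltransferase that shares exons with its Ugt1a neighbours and is uncertain for that, had 0.24 (adjusted p = 0.314). The 3 called genes all had means under 3 log2 CPM, and with a filter at that level none of the list was called.

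The proteins that hold the receptor, or share ARNT with it, moved in both directions. Of 12 genes, 11 were tested, 4 called higher and 2 lower, with a median of -0.035, where 19.1% of all tested genes were called higher and 20.7% lower. Ptges3, which encodes the HSP90 co-chaperone p23, rose by 0.48 (adjusted p = 0.00162), and the chaperone Hsp90aa1 by 0.36 (adjusted p = 0.0172), a call lost without control tumor 4 (adjusted p = 0.0566). Hsp90ab1, Hif1a and Src had log2 fold changes of 0.22, -0.086 and -0.19 and were not called, though Src was without knockout tumor 1 (-0.32, adjusted p = 0.0315). Calls named after their values were seen were Arnt2 (0.64, adjusted p = 0.0159), a brain-enriched relative of Arnt, and on the lower side the clock factor Arntl (-0.85, adjusted p = 0.000559) and the coactivator Ncoa2 (-0.46, adjusted p = 0.00513).

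In the rest of the tryptophan and kynurenine pathway, 8 of 15 genes were tested, 2 were called higher and none lower, with a median of 0.43. That is near the 19.1% of all tested genes called higher. Slc3a2, the heavy chain of several amino acid transporters including that of Slc7a5, rose by 1.04 (adjusted p = 0.00011). Wars, the tryptophanyl-tRNA synthetase and an interferon gamma target, rose by 0.60 (adjusted p = 0.0376), a call lost without control tumor 2, 3 or 4 or knockout tumor 1 (adjusted p 0.0807 to 0.112). Afmid, which hydrolyses formylkynurenine, had -0.36 (adjusted p = 0.186). Kyat1, which makes kynurenic acid, had -0.22 (adjusted p = 0.484), and Gpr35, a receptor for it, had -0.46 (adjusted p = 0.180) and was called without knockout tumor 1 (-0.71, adjusted p = 0.0171).

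Aldh3a1 was not the sole aldehyde dehydrogenase to rise, though its difference, for which it was chosen, was the largest among the tested genes of the family. Of 20 other family members, 16 were tested, 8 were called higher and 2 lower, with a median of 0.44. Over all tested genes, 19.1% were called higher and 20.7% lower. Without control tumor 3 the number of family members called higher was 5. Aldh1a2, which makes retinoic acid, rose by 2.40 (adjusted p = 0.000671). Aldh5a1, the succinic semialdehyde dehydrogenase, rose by 1.57 (adjusted p = 0.000173), and Aldh3b1, of the same family as Aldh3a1, by 1.28 (adjusted p = 6.5e-05). Aldh2, the mitochondrial enzyme that clears acetaldehyde, rose by 0.63 (adjusted p = 0.00135). The genes called lower, named after their values were seen, were Aldh1l1 (-0.61, adjusted p = 0.00913) and Aldh7a1 (-0.56, adjusted p = 0.00491).

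NRF2, the sensor of oxidative and electrophilic stress, shares targets with AHR. Of 10 NRF2 targets, all tested, 5 were called higher and 1 lower, with a median of 0.33, beside 19.1% higher and 20.7% lower over all tested genes. Nqo1, already counted among the AHR targets, rose most. Slc7a11, the cystine transporter, rose by 1.23 (adjusted p = 0.00122), and Akr1b8, an aldo-keto reductase, fell by 1.14 (adjusted p = 0.000356). Hmox1, G6pdx and Txnrd1 had log2 fold changes of 0.42, 0.24 and 0.18 and were not called. G6pdx was called without knockout tumor 3 or 4 (adjusted p = 0.04997 and 0.0358) and Txnrd1 without control tumor 1 (0.27, adjusted p = 0.0354). Of the genes called higher, 2 lost their call and are named for that. Gclc (0.39) lost it without control tumor 1, 2 or 3 or knockout tumor 2, 3 or 4 (adjusted p 0.0654 to 0.0813). Srxn1 (0.27) lost it without control tumor 4 (adjusted p = 0.0582).

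**Figure D3:**
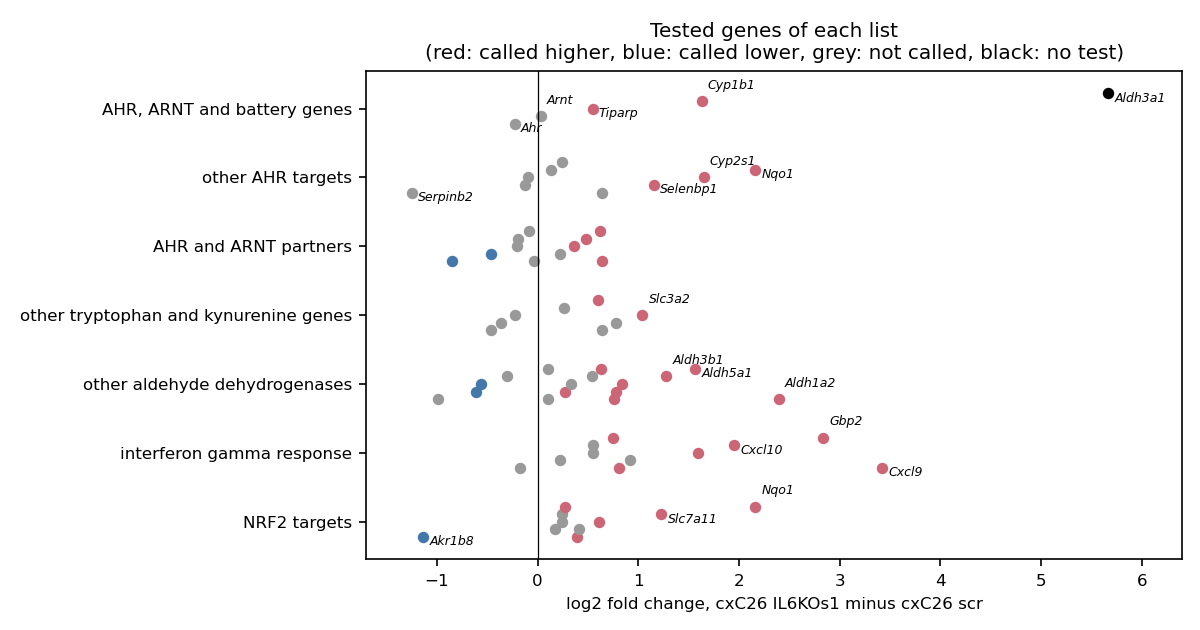
Log2 fold change of cxC26 IL6KOs1 minus cxC26 scr (horizontal axis) for each tested gene of the 7 lists (rows), with red for genes called higher, blue for lower, grey for not called and black for Aldh3a1, which has no test. Aldh3a1 at 5.66 lies apart from every other gene shown, of which Cxcl9 at 3.42 is the next highest.

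Genes of the interferon gamma response, which include known inducers of Ido1, moved unevenly among the knockout tumors. Of 12 genes, 11 were tested, 6 were called higher and none lower, with a median of 0.81, where 19.1% of all tested genes were called higher. Cxcl9 rose by 3.42 (adjusted p = 0.0325), Gbp2 by 2.83 (adjusted p = 0.00872) and Cxcl10 by 1.95 (adjusted p = 0.0258). Without knockout tumor 1, which held 3038 of 3230 Cxcl9 reads and 3999 of 5086 Gbp2 reads, these were 1.93 (adjusted p = 0.00555), 1.88 (adjusted p = 0.000103) and 1.47 (adjusted p = 0.0522). Cxcl9 lost its call without control tumor 1, 3 or 4 (adjusted p 0.0633 to 0.0782), and Cxcl10 also without control tumor 2, 3 or 4 or knockout tumor 4 (adjusted p 0.0501 to 0.0790). The receptor chain Ifngr1 rose by 0.75 (adjusted p = 0.000171), and the other chain, Ifngr2, had -0.17 (adjusted p = 0.146). Without control tumor 3 the number called higher was 3, and without knockout tumor 1 it was 5. The summed level of the 12 genes was 257 to 290 CPM in the controls and 1140, 336, 364 and 374 CPM in the knockout tumors. Knockout tumor 1, the tumor with most of the Ido1 reads, was thus the highest here too, and Ifng itself had 33 of its 36 reads in that tumor. A link between these genes and Ido1 was not tested.

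**Figure D4:**
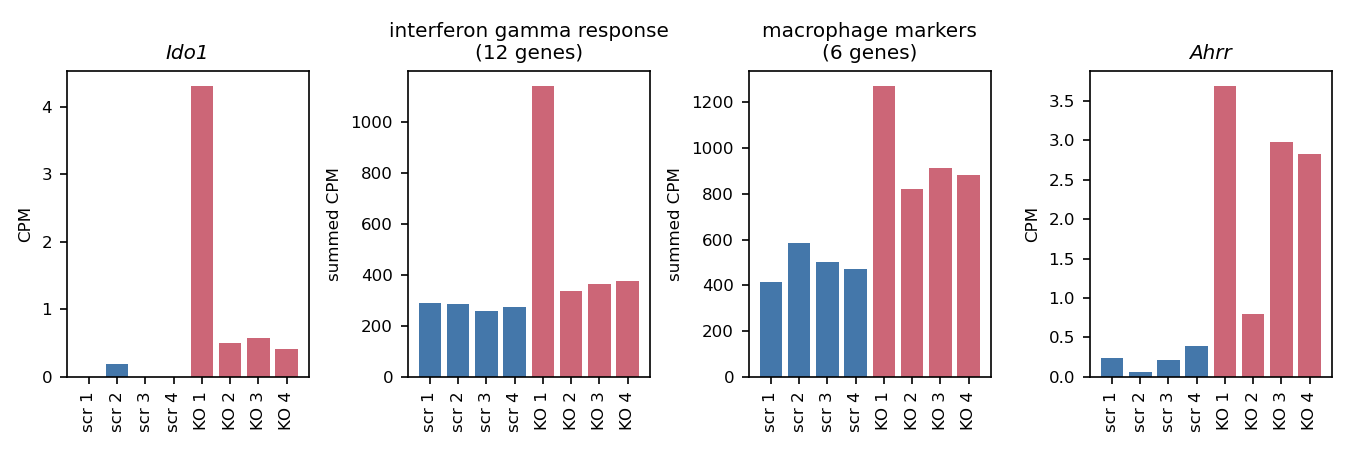
CPM of Ido1 and Ahrr and the summed CPM of 12 interferon gamma response genes and 6 macrophage markers (vertical axes, from 0) in each of the 4 cxC26 scr (blue) and 4 cxC26 IL6KOs1 (red) tumors. Knockout tumor 1 is the highest in all 4 panels, by the widest margin for Ido1 and for the interferon genes at 1140 CPM.

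Markers of other cells in the tumors were read beside the AHR battery, and they differed between the groups for some cell types. The counts below stand beside 19.1% called higher and 20.7% called lower over all tested genes. Macrophage markers were called higher in 6 of 6 genes, of which Mrc1 (0.52, adjusted p = 0.0499) lost its call without control tumor 1, 3 or 4 or knockout tumor 2, 3 or 4 (adjusted p 0.0670 to 0.146), and their sum ran from 415 to 586 CPM in the controls and from 823 to 1272 CPM in the knockout tumors. All 5 tested markers of T and NK cells, of 8 listed, were called higher, but Cd8a and Nkg7 passed the filter through the knockout tumors alone, and Prf1 lost its call without control tumor 1, 3 or 4 (adjusted p 0.0646 to 0.104). Their sums, over all 8 markers, were 1.62 to 6.61 CPM against 15.1 to 47.0 CPM. Of 8 dendritic cell markers 3 were tested and all 3 (Fscn1, Itgax and Zbtb46) were lower, while the means of the 5 under the filter were higher in the knockout tumors, by 0.29 (Batf3) to 1.60 (Xcr1), with no overlap for Xcr1 and Ccr7. The sums over all 8 dendritic markers were 281 to 383 CPM against 179 to 207 CPM. Most of each sum was Fscn1 and Itgax, with mean log2 CPM values of 7.78 and 6.22 in the controls and 7.31 and 4.33 in the knockout tumors. The sums therefore do not show the 5 markers under the filter, which went the other way. Fibroblast markers were called higher in 1 and lower in 2 of 6, endothelial markers lower in 1 of 5, and the single tested hepatocyte marker of 5, Apoa1, was lower, having passed the filter through the control tumors alone (-1.59, and -1.06 without knockout tumor 2). Their sums ran from 3797 to 5678 against 3244 to 4792 CPM, from 94.9 to 144 against 101 to 125 CPM, and from 1.30 to 7.25 against 0.361 to 8.28 CPM. The part of these cells in the rise of Aldh3a1, Cyp1b1, Ahrr, Tiparp or Ido1 was not tested.

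Aldh3a1 is known from squamous epithelium, so its markers were read beside it. Of 10 squamous markers 1 was tested and none called, and their sum was 11.95 to 25.1 CPM in the controls and 10.5 to 13.95 CPM in the knockout tumors. Most of each sum was Krt10, the tested marker. The 25.1 CPM was control tumor 1, and the other controls had at most 14.2 CPM. That tumor also held 59 of the 65 Krt5 reads and 28 of the 30 Krt14 reads. Trp63, Dsg3 and Ivl had 2 reads each over all 8 tumors, and no marker of this or the other lists was at 0 everywhere. The intestinal and simple epithelial markers, which check the colon label, were uneven: Krt20 had mean log2 CPM values of 10.2 and 10.4, but Epcam had 36 reads, Vil1 10, Krt19 2 and Cdx1 1 over all 8 tumors. Of these 10 markers 5 were tested, 2 called higher (Krt18 and Cdh1) and 1 lower, beside 19.1% and 20.7% of all tested genes. The lower one, Cdx2, went from a mean log2 CPM of 0.76 to -4.52 and passed the filter through the control tumors alone. The sums of these 10 markers were 1087 to 1296 CPM against 1333 to 1455 CPM.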

How the data were processed

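RNA-seq was made from 8 tumors, and GEO's labels gave the group of each. The deposited values are log2 CPM per gene, which the authors made from paired reads (base calling with bcl2fastq 2.17, trimming with Trimmomatic, alignment to mm10 with Hisat2, gene counts with featureCounts) and normalized with limma-voom on Galaxy, adding 0.5 read per gene. All values gave back whole reads to within 0.01 (100%), from which the reads per tumor and library totals were taken, and 0 columns were left unused. The annotation and the strand setting of the counting are not given in the sources used here.

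Genes at 1 CPM or more in at least 4 tumors were fitted with limma 3.58.1 in R 4.3.3 (trended variance, no covariates), with Benjamini-Hochberg adjustment over all tested genes and a threshold of 0.05. Genes of the set under the filter were read from the same fit of all genes and from 2-sided exact permutation tests (scipy 1.17.1). The fits were first tested on simulated data. The genes of the set and the lists were chosen with earlier results of these data known. Named were all 10 genes of the set, up to 6 tested genes per pathway list (those called with a log2 fold change over 1 in size, then those with the highest mean), the 5 genes nearest to Aldh3a1 and the tested genes within 250 kb of it. Nothing in the labels ties tumors to each other or gives batches. Positions are those of RefSeq GRCm38.p6 and exon lengths those of GENCODE M21. Aldh3a1, Ahr, Ido1 and Kynu had no promoter in the reference used and were not searched for the core. Some genes of the lists are counted but not reported here by name. Arntl and Wars are listed as Bmal1 and Wars1 in the reference.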

Additional observations from a re-analysis of the deposited data

Results flagged for a closer look

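Among 20 groups of 4 tumors (10 genes, each in both groups), 4 had 1 tumor whose distance to its nearest neighbour took up more of the group's range than Dixon's 95% limit for 4 samples. For continuous values chance gives about 1 in 20. Where 1 tumor had reads and the others had 0, as for Cyp1a1 in both groups and Ido1 in the controls, the others differed by library size alone. Such groups pass the limit at this depth in any case, and the comparison with chance does not hold for them. Ido1 had a log2 CPM of 2.12 (70 reads) in knockout tumor 1, against -1.16 to -0.73 in the other knockout tumors (gap over range 0.870). Ido1 had -2.21 (3 reads) in control tumor 2, against -5.06 to -4.83 at 0 reads in the other controls (0.919). Cyp1a1 had -3.25 in control tumor 3 (0.936) and -3.44 in knockout tumor 1 (0.879), each from 1 read where the rest of the group had none.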

How the results depend on the processing

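Under 18 alternatives (filters, normalization, variance models, scale, and each tumor left out in turn), the differences of Aldh3a1, Cyp1b1 and Tiparp kept their direction, from 4.89 to 5.88, 1.28 to 1.85 and 0.42 to 0.62, and Cyp1b1 and Tiparp stayed called (adjusted p at most 0.0180 and 0.0343); Cyp1b1 was not tested with a filter at a mean of 3 log2 CPM. The number of genes called other than Aldh3a1, 2 as reported, was 4 without a filter, where Ahrr and Ido1 enter the test, and 1 at the mean of 3 log2 CPM, where Cyp1b1 leaves it. Leaving out each tumor in turn moved Arnt between -0.0041 (without knockout tumor 2) and 0.0671, and Ahr became called without knockout tumor 1 (-0.33). Ahrr stayed called with each tumor left out of the fit without a filter, an alternative chosen after seeing the data (adjusted p at most 0.0337). A filter at 1 CPM in at least 3 tumors, also added, lets Ahrr in through knockout tumors alone, so its call there is no support. Of the lists, the interferon genes called higher fell from 6 to 2 without a filter or with robust variance and to 3 without a variance trend or control tumor 3; the aldehyde dehydrogenases called higher fell from 8 to 5 without a filter; the AHR targets called higher fell to 0 at the mean of 3 log2 CPM. A single gene was called higher among the tryptophan genes, 1 in place of 2, without a trend or with robust variance. In place of none, 1 tryptophan gene was called lower without knockout tumor 1 and 1 AHR target lower without control tumor 4. The aldehyde dehydrogenases called lower fell from 2 to 1 at the mean of 3 log2 CPM. Where no construction of the alternative shows it, the cause was not tested. A replicate block gave Tiparp 0.55 with an adjusted p of 0.0196 and 2 genes called. Correlations of same-numbered tumors, as deviations from their group means, were -0.0593, 0.057, 0.017 and -0.0587. These values show no sign of pairing by number, but they cannot exclude that same-numbered tumors were handled together. Depth limits Cyp1a1, Tdo2 and Kynu, at 0 to 8 reads per tumor.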
